A study of Homo sapiens with 4 samples.

Results

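The genes described here are 10 genes of the YAP/TAZ pathway, followed across 2 human gastric cancer cell lines with and without a cardiac glycoside. The list was given by name, chosen with earlier results of these data known, and was matched by gene symbol to the Ensembl IDs of the deposited table, where all 10 were found among 62710 genes. By role they are the coactivators YAP1 and WWTR1 (the gene of the protein TAZ), the DNA-binding factor TEAD1, the targets CCN1, CCN2 and ANKRD1, the angiomotin family members AMOTL1 and AMOTL2, the kinase LATS2 and the LIM-domain protein AJUBA. mRNA enriched on capture beads was sequenced from HGC27 and MKN45 cells after 24 h with periplocymarin at 0.3 µM or with the vehicle, DMSO at 0.1%. Both are established human gastric cancer lines, HGC27 undifferentiated and MKN45 poorly differentiated. Periplocymarin is a plant steroid of the cardiac glycoside class, which blocks the Na,K-ATPase. Each line had 1 periplocymarin library and 1 DMSO library, so nothing within a line can be tested, and no label names separate cultures.

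In the Hippo pathway the kinases STK3 and STK4 (MST kinases) activate LATS1 and LATS2, which phosphorylate YAP1 and TAZ and so keep them in the cytoplasm or send them to degradation. Unphosphorylated YAP1 and TAZ enter the nucleus and, having no DNA-binding domain of their own, act through TEAD factors on genes of matrix, adhesion and growth. Several targets feed back on the pathway: LATS2 and the angiomotins restrain YAP1 and TAZ, while AJUBA restrains LATS kinases. Phosphorylation, cell location and protein level were not measured here, since the data are messenger RNA levels.

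TEAD factors bind the motif GGAATG, and RefSeq promoter windows (GRCh38.p14, from 250 bases before to 50 bases after a start site) were matched for 8 of the 10 genes, in 11 windows. CCN1 and TEAD1 had no window, so no motif was searched for in their promoters. The 4 windows below are examples that each hold a match, from targets or feedback genes whose levels the later results turn on. Windows without a match are not printed. They run 5′ to 3′ along the gene, and capitals mark each GGAATG or its reverse complement CATTCC.
CCN2, chr6:131951323-131951622, minus strand: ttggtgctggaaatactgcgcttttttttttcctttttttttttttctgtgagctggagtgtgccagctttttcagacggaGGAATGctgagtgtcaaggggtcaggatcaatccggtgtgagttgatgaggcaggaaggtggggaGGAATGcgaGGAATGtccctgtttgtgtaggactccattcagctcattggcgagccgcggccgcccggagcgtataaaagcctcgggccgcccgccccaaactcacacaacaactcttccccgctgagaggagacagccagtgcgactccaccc
ANKRD1, chr10:90921038-90921337, minus strand: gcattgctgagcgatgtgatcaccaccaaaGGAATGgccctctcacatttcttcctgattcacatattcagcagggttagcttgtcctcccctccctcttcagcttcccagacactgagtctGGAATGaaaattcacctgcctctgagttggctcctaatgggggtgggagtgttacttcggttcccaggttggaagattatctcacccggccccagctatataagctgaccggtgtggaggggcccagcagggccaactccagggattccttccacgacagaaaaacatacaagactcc
AMOTL2, chr3:134374398-134374697, minus strand: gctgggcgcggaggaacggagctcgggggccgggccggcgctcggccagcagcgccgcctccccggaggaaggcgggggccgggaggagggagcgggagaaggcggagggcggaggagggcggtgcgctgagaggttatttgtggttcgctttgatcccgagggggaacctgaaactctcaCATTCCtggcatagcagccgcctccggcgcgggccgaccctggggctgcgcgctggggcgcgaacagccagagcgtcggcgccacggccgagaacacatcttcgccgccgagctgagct
LATS2, chr13:21061537-21061836, minus strand: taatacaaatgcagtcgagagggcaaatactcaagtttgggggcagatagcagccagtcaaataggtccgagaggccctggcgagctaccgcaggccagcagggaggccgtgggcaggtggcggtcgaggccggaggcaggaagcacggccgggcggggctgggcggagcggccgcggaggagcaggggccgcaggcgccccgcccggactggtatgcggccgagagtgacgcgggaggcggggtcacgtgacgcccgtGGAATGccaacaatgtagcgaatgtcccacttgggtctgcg
The CCN2 window held 3 matches, whose first bases lie at -169, -104 and -95 from the start site. The ANKRD1 window held 2, at -220 and -128, the AMOTL2 window 1, at -69 on the opposite strand, and the LATS2 window 1, at 10 inside the transcript. Of 35116 promoter windows in all, 14.0% held at least 1 match, 1.37% at least 2 and 0.128% at least 3. One window each of YAP1 and AJUBA also held a match, so 6 of the 11 windows did, while those of WWTR1 and AMOTL1, a second AMOTL2 window and a second AJUBA window had none. The AP-1 motif TGANTCA, searched on both strands, was found in the ANKRD1 window, at -195, and in none of the other 10 windows, against 7.71% of all windows. The CArG box, the motif of the serum response factor SRF, was in none of the 11 and in 1.29% of all windows. No matches overlapped in these 11 windows. A match is a description of the letters in the window and does not show binding.

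In the GENCODE 29 annotation of GRCh38 the body of CCN1 lies at chr1:85580761-85583962 on the plus strand, that of CCN2 at chr6:131948176-131951373 on the minus strand and that of ANKRD1 at chr10:90912096-90921276 on the minus strand. YAP1 lies at chr11:102110461-102233423, TEAD1 at chr11:12674591-12944483 and AMOTL1 at chr11:94706431-94876753, each on the plus strand. On the minus strand lie WWTR1 at chr3:149517235-149736714, AMOTL2 at chr3:134355874-134375479, LATS2 at chr13:20973032-21061547 and AJUBA at chr14:22971174-22982642. Gene models on the opposite strand overlap YAP1, WWTR1, TEAD1, CCN2, AMOTL1 and LATS2, among them LATS2-AS1 and WWTR1-AS1. A same-strand protein-coding model overlaps AJUBA, and a same-strand pseudogene and a microRNA overlap AMOTL2. The strand setting of the counting is not given, so reads of these overlaps cannot be told apart from those of the named genes. CCN1 and ANKRD1 are overlapped by no other model.

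Values are FPKM, a level per kilobase of gene that is scaled to a library size. Reads were recovered from the steps between low FPKM values. The library size implied by these steps was not the total of recovered reads. It was 0.9445 and 1.2 times that total in treated and vehicle HGC27. In treated and vehicle MKN45 it was 0.8607 and 1.007 times that total. The ratios and intervals below carry this scaling. The 4 libraries held between 24937769 and 36612376 recovered reads. The periplocymarin libraries had 21774 and 21757 genes above 0, against 25992 and 25494 in the DMSO libraries of HGC27 and MKN45, and 3.38% and 5.11% of reads from mitochondrially encoded genes, against 6.89% and 11.1%. These measures moved with the treatment in both lines, and their part in the results below was not tested. The summed level of 10 epithelial markers was 1.80 and 6.30 FPKM in treated and vehicle HGC27 and 2956 and 1729 FPKM in treated and vehicle MKN45. Of these 10, 9 in treated and 8 in vehicle HGC27 were under 1 FPKM, EPCAM, KRT8 and KRT18 among them in both libraries. MUC1 was above it, at 1.096 FPKM in treated and 3.886 FPKM in vehicle HGC27. CLDN7 was above it in vehicle HGC27 only, at 1.716 FPKM. Most of the epithelial part of the gastric label was thus not visible in that line, apart from low MUC1 and CLDN7. The 8 mesenchymal markers summed to 882 and 652 FPKM in treated and vehicle HGC27, mostly vimentin and fibrillar collagens, and to 0.589 and 1.17 FPKM in MKN45. Of the epithelial and mesenchymal markers, the mucin MUC1 fell in the test over both lines that is described below (-1.23 ± 0.28, limma adjusted p = 0.0369). TFF3 and CDH2 were not tested, and the other tested markers did not pass. Among markers averaging 10 FPKM or more, the fitted differences next in size to MUC1 in the epithelial list were -0.75 for CLDN7 and 0.71 for KRT8, and those in the mesenchymal list were 0.48 for COL3A1, 0.34 for COL1A1 and 0.12 for SPARC. Of 9 markers of blood, endothelial and liver cells, 6 and 3 were at 0 in treated and vehicle HGC27 and 7 in each MKN45 library, and they summed to at most 2.47 FPKM in any library.

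The 2 lines carried different coactivators. In HGC27, YAP1 was the main one, at 61.9 FPKM in the periplocymarin library and 29.5 FPKM in the DMSO library. In MKN45, YAP1 was close to silent, at 0.0731 FPKM (11 reads, exact Poisson 95% interval 0.0365 to 0.131 FPKM) in the periplocymarin library and 0.258 FPKM (60 reads, 0.197 to 0.332 FPKM) in the DMSO library. Such intervals cover counting error only. WWTR1 took the larger share there, at 71.8 FPKM in treated and 18.2 FPKM in vehicle MKN45, while HGC27 held 13.6 FPKM in the treated and 9.05 FPKM in the vehicle library.

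Of the summed YAP1 and WWTR1 level, which counts both mRNAs per length, YAP1 made up 82.0% in treated and 76.5% in vehicle HGC27 but 0.102% in treated and 1.39% in vehicle MKN45. That sum was 75.5 FPKM in treated and 38.5 FPKM in vehicle HGC27, and 71.9 FPKM in treated and 18.5 FPKM in vehicle MKN45. The sum was therefore higher with periplocymarin in both lines, through YAP1 and WWTR1 in HGC27 and through WWTR1 in MKN45. In bulk RNA, more RNA per cell and more cells of a kind cannot be told apart.

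**Figure D1:**
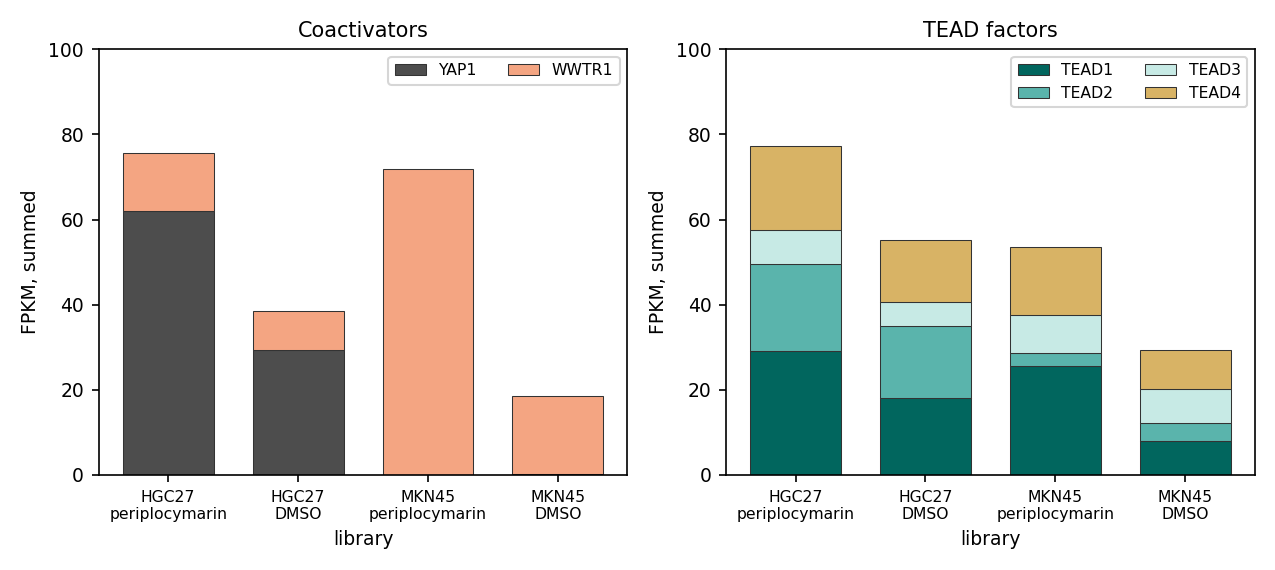
Stacked levels in FPKM of the coactivators YAP1 and WWTR1 (left) and of the 4 TEAD factors (right) in each of the 4 libraries, 1 bar per library. YAP1 fills 82.0% and 76.5% of the coactivator bars of treated and vehicle HGC27 and is too small to see in MKN45, and among the TEAD segments TEAD1 differs most between treated and vehicle MKN45.

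Within HGC27, the YAP1 level in the periplocymarin library was 2.101 times that in the DMSO library (95% interval 2.03 to 2.17, from exact Clopper-Pearson limits on the reads). Such intervals leave out the choice of scaling. With libraries scaled to their totals alone, the median difference of log2(FPKM + 1) over all genes moved by -0.28 in HGC27 and -0.18 in MKN45. In MKN45 the YAP1 level was 0.283 times the DMSO level (0.134 to 0.544), a ratio that rests on those 11 and 60 reads. WWTR1 was at 1.51 times the DMSO level in HGC27 (1.43 to 1.59) and at 3.94 times in MKN45 (3.82 to 4.06). Each coactivator thus had its larger upward ratio in the line where it was the main one, and with 1 library per condition the difference between lines cannot be tested. Over both lines, neither passed the test described below, with a fitted log2 difference of 1.23 ± 0.35 for WWTR1 (limma, Benjamini-Hochberg adjusted p = 0.0643, upward in 2 of 2 lines) and of 0.41 ± 0.35 for YAP1 (adjusted p = 0.468, upward in 1 of 2 lines).

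TEAD1 stood at 29.2 FPKM in treated and 18.1 FPKM in vehicle HGC27, and at 25.5 FPKM in treated and 7.93 FPKM in vehicle MKN45. Both treated libraries were above both vehicle libraries, with ratios of 1.62 in HGC27 (1.56 to 1.67) and 3.22 in MKN45 (3.08 to 3.36). The fitted difference of 1.12 ± 0.31 missed the threshold (limma adjusted p = 0.0598). Its paralogs differed less between treated and vehicle libraries. TEAD4 was at 19.6 FPKM in treated and 14.5 FPKM in vehicle HGC27 and at 16.0 FPKM in treated and 9.08 FPKM in vehicle MKN45. TEAD3 was at 7.99 FPKM in treated and 5.59 FPKM in vehicle HGC27 and at 8.93 FPKM in treated and 7.96 FPKM in vehicle MKN45. TEAD2 was at 20.4 FPKM in treated and 17.0 FPKM in vehicle HGC27 and at 3.17 FPKM in treated and 4.37 FPKM in vehicle MKN45. Over both lines none of the 3 passed, with fitted differences of 0.58 ± 0.28 for TEAD4, 0.30 ± 0.29 for TEAD3 and -0.06 ± 0.30 for TEAD2 (limma adjusted p = 0.21, 0.518 and 0.919), and the difference between paralogs was not tested. TEAD1 made up 47.6% of the summed TEAD level in treated MKN45, against 27.0% in vehicle MKN45, and 37.8% in treated HGC27, against 32.8% in vehicle HGC27.

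**Figure D2:**
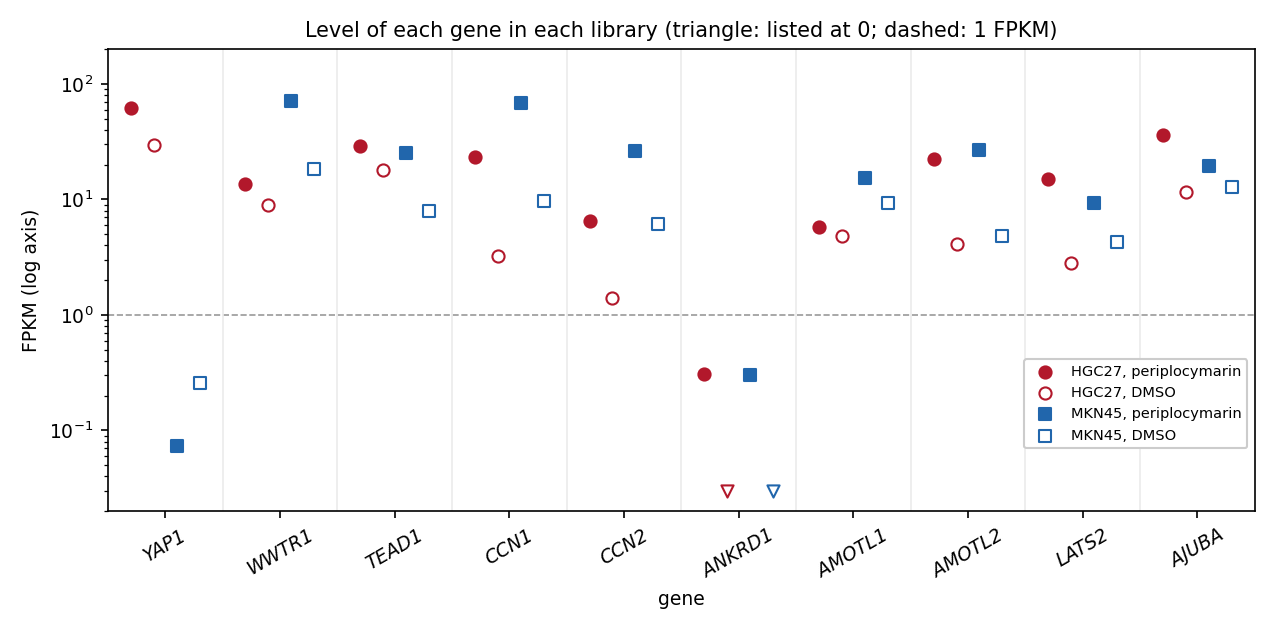
Level of each of the 10 genes in each library, in FPKM on a log axis, with filled symbols for periplocymarin and open symbols for DMSO, circles for HGC27 and squares for MKN45, and the dashed line at 1 FPKM. Filled symbols lie above their open partner for every gene in both lines except YAP1 in MKN45, and ANKRD1 is listed at 0 in both DMSO libraries.

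The secreted matrix proteins CCN1 and CCN2, the pathway's most used readouts, had higher levels with periplocymarin in both lines. CCN1 was at 23.5 FPKM in treated and 3.22 FPKM in vehicle HGC27, and at 68.3 FPKM in treated and 9.63 FPKM in vehicle MKN45. CCN2 was at 6.50 FPKM in treated and 1.41 FPKM in vehicle HGC27, and at 26.2 FPKM in treated and 6.16 FPKM in vehicle MKN45. Treated libraries were the 2 highest of the 4 for each gene, although CCN2 in treated HGC27 lay only just above vehicle MKN45.

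The CCN1 ratio was nearly the same in the lines, 7.30 in HGC27 (6.54 to 8.16) and 7.10 in MKN45 (6.68 to 7.54), with overlapping counting intervals. The CCN2 ratios were 4.63 in HGC27 (3.72 to 5.80) and 4.26 in MKN45 (3.85 to 4.71), also overlapping. The starting levels were not alike, since vehicle MKN45 held 2.99 times the CCN1 and 4.39 times the CCN2 of vehicle HGC27. The same held with periplocymarin, where MKN45 had 2.91 times the CCN1 and 4.04 times the CCN2 of HGC27.

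ANKRD1, a nuclear ankyrin-repeat protein and another standard target, was at 0.308 FPKM in treated HGC27 and 0.305 FPKM in treated MKN45, 13 reads in each, and was listed at 0 in both vehicle libraries. Set against a floor of 3 reads per vehicle library, it was at least 5.94-fold higher in treated HGC27 and at least 6.70-fold higher in treated MKN45. That floor takes the 13 treated reads as they stand, and the lower 95% Clopper-Pearson limits of the ratio, which count their error too, were 4.17 in HGC27 and 4.71 in MKN45. At a mean of 0.153 FPKM it was under the minimum of 1 FPKM and was not tested. The other CCN paralogs gave little to compare. CCN3 was at 75.2 FPKM in treated and 19.6 FPKM in vehicle HGC27 but at 0.176 FPKM in treated and 0.519 FPKM in vehicle MKN45, and did not pass over both lines (0.76 ± 0.46, limma adjusted p = 0.305). CCN4 and CCN6 were listed at 0 in all 4 libraries, and CCN5 and ANKRD2 in 3 of the 4, with 4 and 3 reads in vehicle HGC27. ANKRD23 was between 0.164 and 0.340 FPKM, lower in the treated library of each line.

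Among the feedback genes, AMOTL2, which holds YAP1 at junctions and in the cytoplasm, was at 22.3 FPKM in treated and 4.09 FPKM in vehicle HGC27, and at 26.9 FPKM in treated and 4.79 FPKM in vehicle MKN45. Both treated libraries were more than 4 times any vehicle library, and the lines resembled each other before and after treatment. The ratios were 5.45 in HGC27 (5.06 to 5.88) and 5.61 in MKN45 (5.26 to 5.998).

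Its paralog AMOTL1 was at 5.73 FPKM in treated and 4.84 FPKM in vehicle HGC27, and at 15.3 FPKM in treated and 9.25 FPKM in vehicle MKN45. Here the groups overlapped, since vehicle MKN45 exceeded treated HGC27, and the ratios were 1.18 (1.1 to 1.27) and 1.65 (1.58 to 1.74). With libraries scaled to their totals alone the AMOTL1 difference in HGC27 turned from 0.20 to -0.09 on the log2(FPKM + 1) scale. AMOT, the founding member of the family, was at 21.1 FPKM in treated and 11.9 FPKM in vehicle HGC27 and at 6.34 FPKM in treated and 3.79 FPKM in vehicle MKN45, and did not pass over both lines (0.70 ± 0.28, limma adjusted p = 0.143).

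LATS2 was at 14.9 FPKM in treated and 2.82 FPKM in vehicle HGC27, and at 9.26 FPKM in treated and 4.26 FPKM in vehicle MKN45. Treated libraries were again the 2 highest, and the ratio was 5.28 in HGC27 (4.79 to 5.83) but 2.17 in MKN45 (1.99 to 2.37). LATS1, the other LATS kinase, was at 7.43 FPKM in treated and 6.32 FPKM in vehicle HGC27 and at 8.56 FPKM in treated and 5.83 FPKM in vehicle MKN45, and did not pass (0.34 ± 0.29, limma adjusted p = 0.452). In the vehicle libraries of both lines LATS1 was thus the higher of the pair, and in treated HGC27 LATS2 was. In treated MKN45 LATS2 and LATS1 were close, at 9.26 and 8.56 FPKM, and with 1 library each their order cannot be tested.

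AJUBA was at 36.2 FPKM in treated and 11.5 FPKM in vehicle HGC27, and at 19.5 FPKM in treated and 12.8 FPKM in vehicle MKN45. Its ratio was 3.15 in HGC27 (2.99 to 3.31) and 1.53 in MKN45 (1.45 to 1.61). LATS2 and AJUBA therefore had their larger ratio in HGC27, and WWTR1, TEAD1 and AMOTL1 in MKN45. The related LIM proteins were at lower levels. LIMD1 was at 0.995 FPKM in treated and 1.76 FPKM in vehicle HGC27 and at 6.24 FPKM in treated and 7.62 FPKM in vehicle MKN45 (-0.36 ± 0.29, limma adjusted p = 0.444). WTIP was at 1.07 FPKM in treated and 0.289 FPKM in vehicle HGC27 and under 1 FPKM in both MKN45 libraries, and was not tested.

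**Figure D3:**
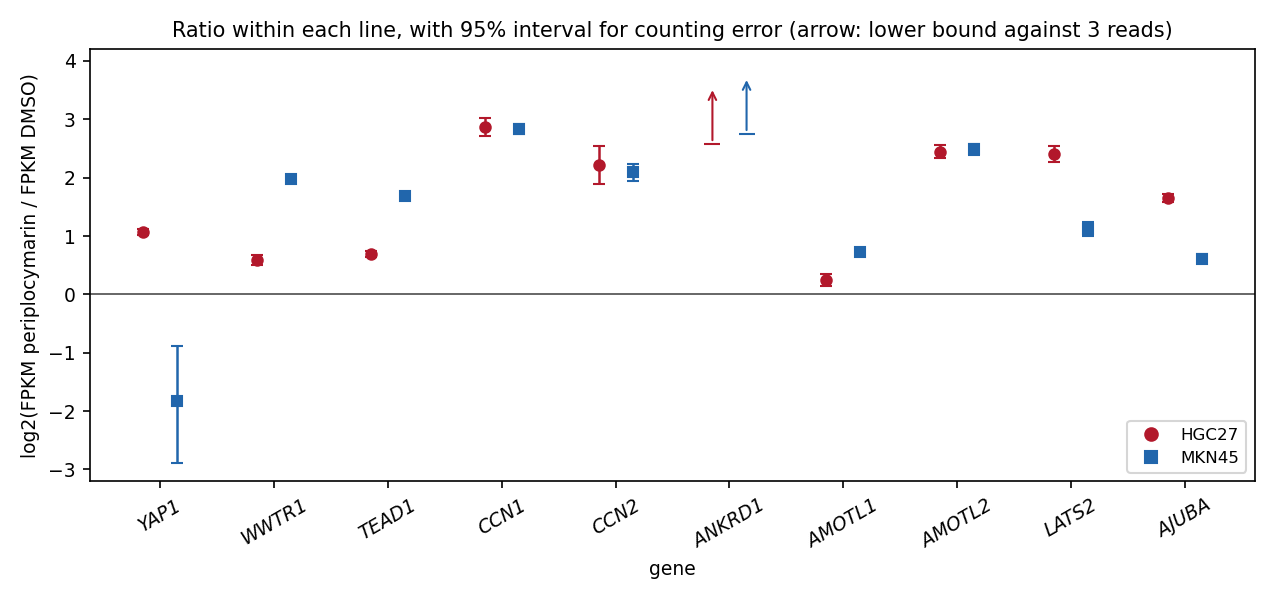
Ratio of FPKM in the periplocymarin library to FPKM in the DMSO library of the same line, on a log2 scale, with bars for the 95% Clopper-Pearson interval of counting error (circles HGC27, squares MKN45). CCN1, CCN2 and AMOTL2 have near-equal ratios in the lines, LATS2 and AJUBA higher ones in HGC27, WWTR1 and TEAD1 higher ones in MKN45, and ANKRD1 has arrows in place of intervals, which start at the ratios of 5.94 and 6.70 against a floor of 3 vehicle reads.

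Ordered by level within a library, YAP1 was first and ANKRD1 last in both HGC27 libraries, and WWTR1 was first in both MKN45 libraries. Of the 10 genes, CCN1 was at rank 4 in treated and rank 7 in vehicle HGC27, and at rank 2 in treated and rank 3 in vehicle MKN45. In treated MKN45 the neighbours WWTR1 and CCN1, at 71.8 and 68.3 FPKM, and AMOTL2, CCN2 and TEAD1, at 26.9, 26.2 and 25.5 FPKM, were close, and with 1 library each no order among such neighbours can be tested.

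To set these values against the rest of the table, the difference of log2(FPKM + 1), periplocymarin minus DMSO, was taken within each line for genes averaging 1 FPKM or more there, and a difference of at least 1 was called higher. This scale understates the change of low genes. In HGC27, 9 of the 10 genes were measured and 6 were higher (YAP1, CCN1, CCN2, AMOTL2, LATS2 and AJUBA), where 9.72% of 11821 measured genes were. In MKN45, 8 were measured and 5 were higher (WWTR1, TEAD1, CCN1, CCN2 and AMOTL2), where 8.21% of 11895 were. None of those measured was lower by that much, where 10.4% of measured genes were in HGC27 and 8.94% in MKN45. YAP1 in MKN45 was under the floor of 1 FPKM and so not counted, though its treated level was 0.283 times that of the DMSO library. Of the 8 measured in both lines, CCN1, CCN2 and AMOTL2 were higher in both, against 3.38% of 10071 genes. LATS2 in MKN45 fell just short, at 0.96, and YAP1 in HGC27 lay just past the limit, at 1.05. Scaling to library totals alone moved the HGC27 median over all genes by -0.28, which is more than the margin of YAP1.

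**Figure D4:**
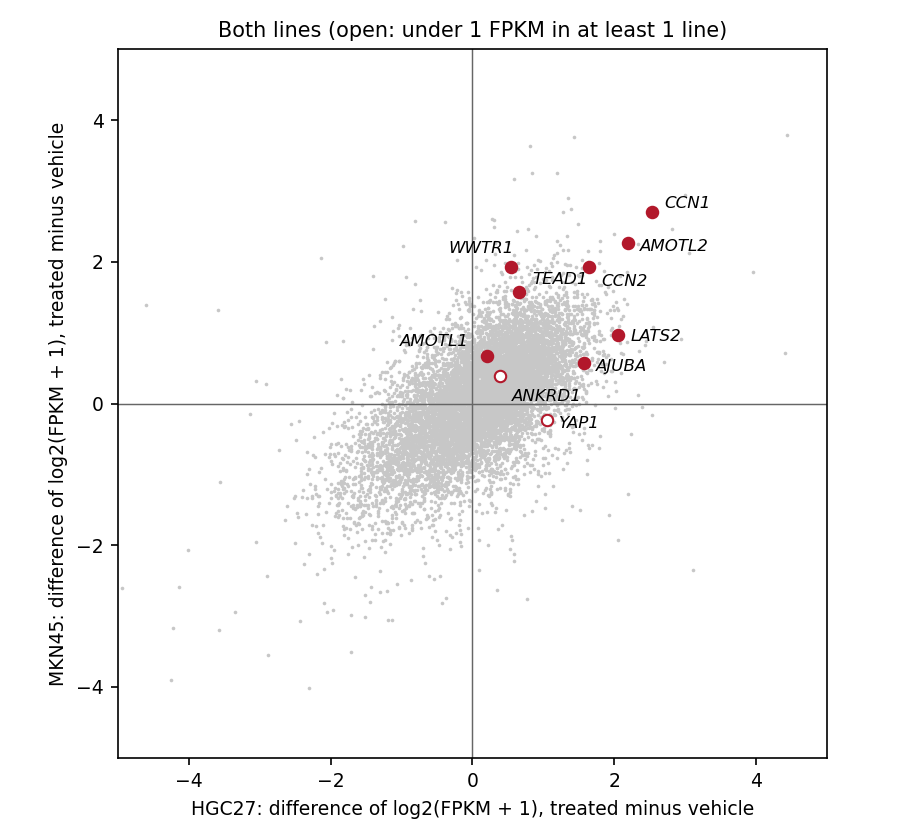
Difference of log2(FPKM + 1), periplocymarin minus DMSO, in HGC27 (x axis) and MKN45 (y axis), with grey points for the 10071 genes that average 1 FPKM or more in each line and red points for the 10 pathway genes, open where a line is under 1 FPKM. CCN1 and AMOTL2 lie at the upper right edge of the cloud, and YAP1 is the only 1 of the 10 below the horizontal line.

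The treatment was tested over both lines with limma on log2(FPKM + 1), blocked by cell line, over 12374 genes. A gene rose or fell when its adjusted p was under 0.05, and a value after ± is the moderated standard error. Of the 10 genes, 4 rose, none fell, 5 did not pass and ANKRD1 was not tested, where 3.49% of all tested genes rose and 3.29% fell. CCN1 rose by 2.62 ± 0.28 (limma adjusted p = 0.00519), AMOTL2 by 2.23 ± 0.28 (adjusted p = 0.00984), CCN2 by 1.78 ± 0.29 (adjusted p = 0.0225) and LATS2 by 1.51 ± 0.33 (adjusted p = 0.0338), each upward in 2 of 2 lines. With no filter on low values, or with cell line left out of the model, no gene of the table passed, so these 4 calls, that of MUC1 and those given below for CRIM1, WWC2, STRN3 and SRF were lost. The other 5 were WWTR1, TEAD1, YAP1 and AMOTL1 (0.44 ± 0.29, adjusted p = 0.349), and AJUBA, at 1.07 ± 0.32 (adjusted p = 0.069). The median fitted difference of the 9 tested genes was 1.23, and that of all tested genes was 0.06. Both treated libraries exceeded both vehicle libraries for 6 of the 9 tested genes, where 21.2% of all tested genes did. The list was chosen with earlier results known, so these counts describe it and do not test it.

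Calls in this fit were more frequent among genes of high level. Among 4454 tested genes averaging 10 FPKM or more, 8.15% rose, and the median fitted difference was 0.34 for genes at 10 to 30 FPKM against -0.29 for those at 1 to 3 FPKM. CCN1, CCN2 and AMOTL2 had means of 26.2, 10.1 and 14.5 FPKM, and LATS2 of 7.81 FPKM. WWTR1, TEAD1 and AJUBA passed under a pseudocount of 0.1, with limma-voom on recovered reads or with a floor of 10 FPKM, settings in which 6.1%, 6.86% and 23.6% of all tested genes rose.

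**Figure D5:**
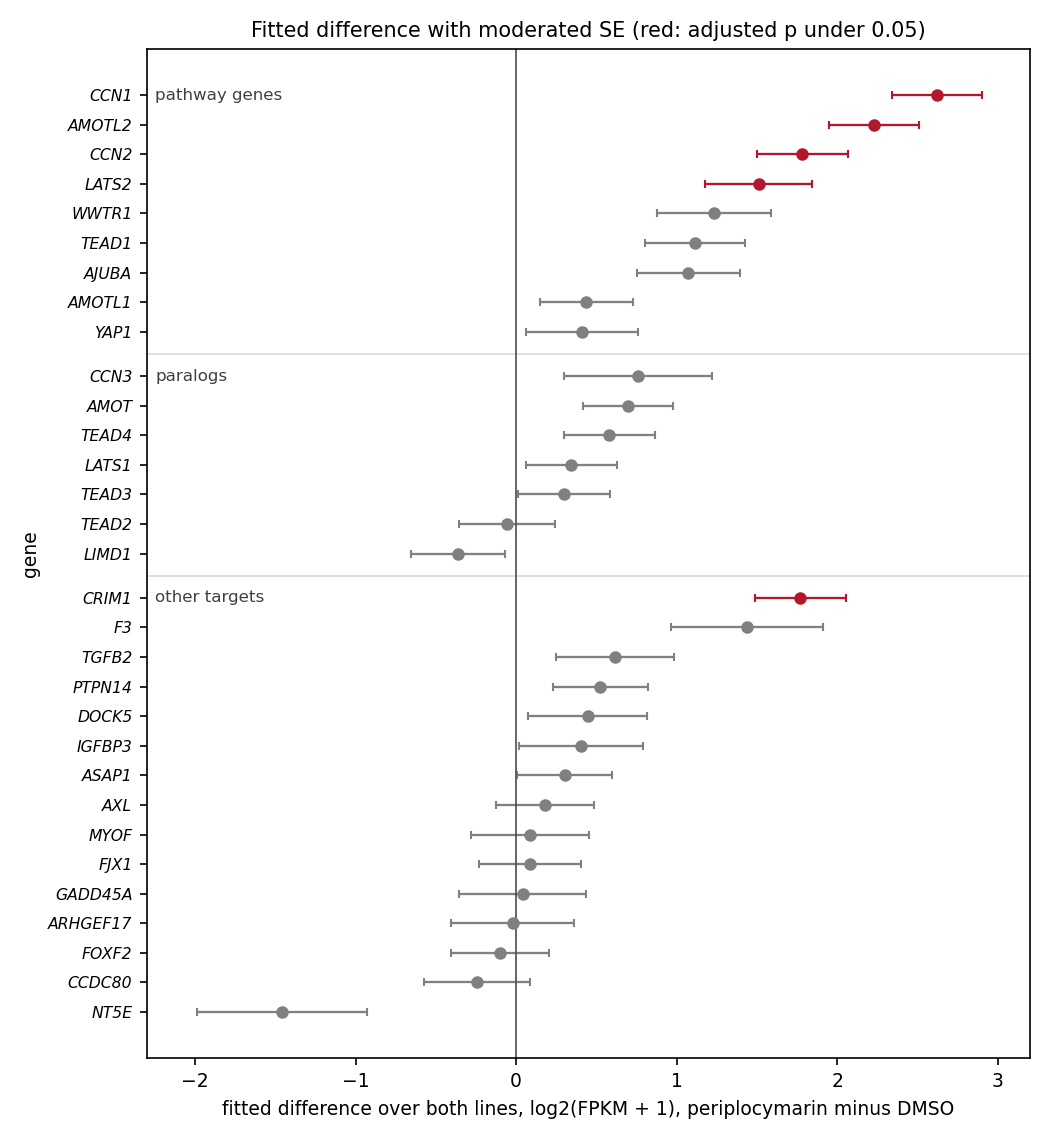
Fitted difference over both lines of log2(FPKM + 1), periplocymarin minus DMSO, with bars for the moderated standard error, for the tested pathway genes, their paralogs and the other genes of the 22-gene target set, in red where the adjusted p was under 0.05. CCN1, AMOTL2, CCN2, LATS2 and CRIM1 are red, and NT5E, at -1.46, is the farthest below 0.

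A set of 22 genes known as YAP/TAZ targets across tumour types gave a wider view, of which 5 are among the 10 genes above. Of the other 17, 15 were tested and only CRIM1, a membrane protein that binds BMP ligands, rose (1.77 ± 0.28, limma adjusted p = 0.0225, against 3.49% of all tested genes), while none fell. CRIM1 was at 19.96 FPKM in treated and 5.93 FPKM in vehicle HGC27, and at 44.9 FPKM in treated and 10.9 FPKM in vehicle MKN45. The median fitted difference of the 15 was 0.18, beside 0.06 for all tested genes. Most of the set, 14 of these 15 genes, thus did not pass the test that CCN1, CCN2, AMOTL2 and LATS2 passed. The lines were not alike in this. Among the 17, the median within-line difference of log2(FPKM + 1) was 0.16 for the 15 measured in HGC27 and 0.83 for the 10 measured in MKN45. It was 0.11 and 0.07 for all genes measured in HGC27 and MKN45, and the difference between lines was not tested.

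Several of those 17 targets differed in 1 line, and the next genes were chosen after their values were seen. F3, the coagulation initiator tissue factor, was at 25.6 FPKM in treated and 3.38 FPKM in vehicle MKN45 and at 1.501 FPKM in treated and 1.06 FPKM in vehicle HGC27. DOCK5 was at 5.74 FPKM in treated and 2.06 FPKM in vehicle MKN45 and at 1.94 FPKM in treated and 2.50 FPKM in vehicle HGC27. TGFB2, a TGF-beta ligand, was at 7.89 FPKM in treated and 2.79 FPKM in vehicle HGC27 and listed at 0 in both MKN45 libraries. IGFBP3, a carrier of insulin-like growth factors, was at 44.8 FPKM in treated and 18.8 FPKM in vehicle HGC27 and at 0.128 FPKM in treated and 0.493 FPKM in vehicle MKN45.

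NT5E, the surface enzyme CD73, was at 3.84 FPKM in treated and 33.3 FPKM in vehicle MKN45, which is 0.115 times the vehicle level (0.104 to 0.128), and at 0.0843 FPKM in treated and 0.157 FPKM in vehicle HGC27. It did not pass over both lines (-1.46 ± 0.53, limma adjusted p = 0.112), but fell with limma-voom on recovered reads (adjusted p = 0.00977), where F3 rose (adjusted p = 0.0227). Within HGC27, 3 of 15 measured targets of the 17 were higher by at least 1 and none lower, where 9.72% of all measured genes were higher and 10.4% lower. Within MKN45, 3 of 10 were higher and 1, NT5E, was lower, where 8.21% of all measured genes were higher and 8.94% lower. Of the 17, the difference was below 0 in at least 1 line for NT5E, DOCK5 and IGFBP3 above and for 6 others, none of which passed over both lines. CCDC80 was at 1.64 FPKM in treated and 2.57 FPKM in vehicle HGC27 and under 0.1 FPKM in both MKN45 libraries. GADD45A, a stress-induced growth arrest gene, was at 20.7 FPKM in treated and 38.0 FPKM in vehicle HGC27 but at 60.6 FPKM in treated and 31.3 FPKM in vehicle MKN45. MYOF was at 1.74 FPKM in treated and 3.38 FPKM in vehicle HGC27 but at 172 FPKM in treated and 94.8 FPKM in vehicle MKN45. ARHGEF17 was at 0.101 FPKM in treated and 0.856 FPKM in vehicle MKN45 but at 6.71 FPKM in treated and 3.72 FPKM in vehicle HGC27. FJX1 was slightly lower in treated HGC27 and FOXF2 in treated MKN45, with differences of -0.18 and -0.36.

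Upstream of the coactivators, 16 genes of the Hippo kinase cascade and its activators were all tested. LATS2 rose, as above, and so did WWC2, a scaffold related to KIBRA that promotes LATS activity (1.37 ± 0.28, limma adjusted p = 0.0302), while none fell and 14 did not pass, where 3.49% of all tested genes rose. WWC2 was at 22.1 FPKM in treated and 9.23 FPKM in vehicle HGC27, and at 26.7 FPKM in treated and 8.41 FPKM in vehicle MKN45. With quantile normalization the WWC2 call was lost (adjusted p = 0.0541). All 16 fitted differences were above 0, with a median of 0.53, beside 0.06 for all tested genes. The share of all tested genes above 0 was not taken, and 0.06 is not matched for level. These 16 genes averaged between 1.99 and 33.0 FPKM. Over all tested genes the median was -0.29 at 1 to 3 FPKM and 0.02 at 3 to 10 FPKM. It was 0.34 at 10 to 30 FPKM and 0.52 at 30 to 100 FPKM. How far the list medians here and below go with level was not tested. MOB1A, the LATS cofactor, had a fitted difference of 0.76 ± 0.29 (limma adjusted p = 0.127). WWC1, the gene of KIBRA itself, was at 44.6 FPKM in treated and 14.5 FPKM in vehicle MKN45 but at 1.84 FPKM in treated and 2.34 FPKM in vehicle HGC27 (0.66 ± 0.40, adjusted p = 0.306).

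Among 11 genes of the STRIPAK phosphatase complex, which opposes the MST kinases, and of the LIM proteins that restrain LATS, 10 were tested. STRN3, a striatin subunit that carries substrates to the phosphatase, rose by 1.57 ± 0.28 (limma adjusted p = 0.0242), and none fell, where 3.49% of all tested genes rose and 3.29% fell. It was at 23.9 FPKM in treated and 8.09 FPKM in vehicle HGC27, and at 25.0 FPKM in treated and 7.07 FPKM in vehicle MKN45. STRN4, another striatin, had a fitted difference of 0.99 ± 0.28 (adjusted p = 0.0619, and 0.0369 with limma-voom), and the median of the 10 was 0.46, beside 0.06 for all tested genes. The 4 genes of YAP degradation, ubiquitin ligase subunits and casein kinases, were all tested without a call. Fitted differences were 0.45 ± 0.28 for FBXW11, 0.39 ± 0.29 for CSNK1D and 0.09 ± 0.30 for CSNK1E. That of the remaining gene, which averaged under 10 FPKM, was below 0, and the median of the 4 was 0.24. Of the VGLL family, which competes with YAP1 for TEAD factors, only VGLL4 was tested, with a difference of 0.71 ± 0.29 (limma adjusted p = 0.142).

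SRF and its MRTF cofactors are known to share targets with YAP1 and TAZ, CCN1 and CCN2 among them. Of 12 genes of SRF, MRTF and their classic targets, 11 were tested, SRF itself rose (1.41 ± 0.28, limma adjusted p = 0.0283), and none fell, where 3.49% of all tested genes rose and 3.29% fell. SRF was at 22.8 FPKM in treated and 6.72 FPKM in vehicle HGC27, and at 37.1 FPKM in treated and 15.5 FPKM in vehicle MKN45. The actin cross-linker FLNA had a fitted difference of 0.53 ± 0.28 (adjusted p = 0.239) and the adhesion protein VCL of 0.50 ± 0.30 (adjusted p = 0.307), and the median of the 11 was 0.20, beside 0.06 for all tested genes.

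Among 2998 candidates, protein-coding and averaging 10 FPKM or more in each line, those whose pair of within-line differences lay nearest that of CCN1, over 2 lines and 4 libraries, were AMD1, AMOTL2, CENPE, ANLN and CDC25A. AMD1, an enzyme of polyamine synthesis, had differences of 2.32 in HGC27 and 2.25 in MKN45, at a distance of 0.50 on the log2 scale from CCN1. AMOTL2 followed at 0.56, and the kinetochore motor CENPE, the cytokinesis scaffold ANLN and the phosphatase CDC25A lay between 0.92 and 1.06 away. Nearest to CCN2 was CRIM1, at a distance of 0.05, followed by ANLN, TRIT1, FKBP14 and CDC25A at 0.16 to 0.22. CCN2 itself averaged 3.95 FPKM in HGC27, under the floor put on candidates, where this scale understates its change. As FPKM ratios, CCN2 and CRIM1 were at 4.63 and 3.37 in HGC27 and at 4.26 and 4.11 in MKN45. The fitted difference over both lines is the mean of the 2 within-line differences, so it adds nothing to this choice. A likeness over 2 points is a description.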

How the data were processed

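The authors deposited 1 table of 62710 Ensembl genes by 4 libraries, whose values, from their steps and sums, are FPKM. Per the submitters' processing notes, the tools were fastp 2.0 and HISAT2 2.1.0 and the build hg38, with no role or order stated. The counter, its annotation and the strand setting were not given. Symbols came from a table of gene names. Whole reads were recovered by multiplying FPKM by gene length and the library size implied by the steps, with the GENCODE 29 length or the nearest length giving whole reads within 0.0001 in every library. With the searched length this gave whole reads for 20299 of 20299 genes above 0 in at least 3 libraries, and with the GENCODE 29 length alone for 15204 of 30457 genes. For genes above 0 in 1 or 2, ANKRD1 among them, the length is less certain. A searched length can lie off the annotated one, as for CCN1 with 3698 against 2455 bases, and read counts and counting intervals, though not FPKM, depend on it.

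Treatment was tested with limma 3.58.1 in R 4.3.3 (trend, cell line as a block, Benjamini-Hochberg over all genes) on log2(FPKM + 1), for genes averaging 1 FPKM or more and 10 recovered reads or more. Libraries were paired by cell line, as the labels give it. The fit has 1 residual and 8.59 prior degrees of freedom. The residual degree of freedom is how far a gene's treatment difference disagrees between the lines. The prior degrees of freedom come from that disagreement over the other tested genes. Standard errors and p-values thus rest mostly on spread borrowed from other genes in these libraries. They do not measure the spread between replicate cultures, since each line has 1 library per condition. The read recovery and the fit were also run on simulated data. For the fit, each changed gene had the same fold in both lines, so genes whose lines differ were not covered. Within a line no test is possible. The genes and lists were chosen with earlier results of these data known. Genes were named by rule: all 10, their paralogs, called genes of each list, the 3 with the largest absolute fitted difference among genes averaging 10 FPKM or more in each list, and the 5 nearest to CCN1 and CCN2. Alternatives were quantile normalization, library totals alone, a pseudocount of 0.1, no filter on low values, a floor of 10 FPKM, limma-voom on recovered reads with the library sizes implied by the FPKM steps, no block, and either line left out.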

Additional observations from a re-analysis of the deposited data

Results flagged for a closer look

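Genes named above whose differences of log2(FPKM + 1), periplocymarin minus DMSO, went in opposite directions in the 2 lines were YAP1, TEAD2, WWC1, CSNK1E, DOCK5, GADD45A, MYOF, FOXF2 and FJX1. The genes searched were the 10 pathway genes at any level, and other named genes only where they averaged 1 FPKM or more in each line. YAP1 was at 1.05 in HGC27 and -0.23 in MKN45, where it had 11 and 60 reads. TEAD2 was at 0.25 in HGC27 and -0.37 in MKN45. WWC1 was at -0.24 in HGC27 and 1.56 in MKN45, DOCK5 at -0.25 and 1.14, and CSNK1E at -0.28 and 0.46 in the same order of lines. GADD45A was at -0.847 in HGC27 and 0.93 in MKN45, MYOF at -0.68 and 0.852, FOXF2 at 0.163 and -0.362, and FJX1 at -0.18 and 0.351 in that order. The difference between lines was not tested, because each line has 1 library per condition.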

How the results depend on the processing

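CCN1, CCN2, AMOTL2 and LATS2 rose under quantile normalization, library totals alone, a pseudocount of 0.1 and limma-voom, and all but LATS2, which is under the floor, with a floor of 10 FPKM. Of the 10 genes, 7 rose with a pseudocount of 0.1 and 7 with limma-voom, against 4. The library sizes for limma-voom were chosen after seeing the data. No gene passed with no low-value filter or with no replicate block, 0 rising and 0 falling over all genes and 0 of the 10 (4306 and 695 genes at an unadjusted p under 0.05); the cause was not tested.

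Over all genes 432 rose and 407 fell. A floor of 10 FPKM gave 1049 and 199, limma-voom 849 and 663, a pseudocount of 0.1 gave 755 and 734, quantile normalization 189 rising, and library totals alone 1189 falling. Library totals alone gave 23.9% of calls upward against 51.5%, a floor of 10 FPKM 84.1% and quantile normalization 34.2%, and totals alone moved the median over all genes by -0.28 in HGC27 and -0.18 in MKN45.

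Differences that changed sign were, with library totals alone, AMOTL1 within HGC27 (-0.0866) and, over both lines, CSNK1E (-0.18), SPARC (-0.0507), GADD45A (-0.237), FJX1 (-0.102) and MYOF (-0.156), with quantile normalization CSNK1E (-0.21), SPARC (-0.15), GADD45A (-0.395), ARHGEF17 (0.0965) and FOXF2 (0.0975), with limma-voom TEAD2 (0.0236) and ARHGEF17 (0.00044), and with a pseudocount of 0.1 IGFBP3 (-0.0649), COL3A1 (-0.127), COL1A1 (-0.246), MYOF (-0.0328) and SPARC (-0.0705). None of these was called, and the cause was not tested. With 1 line left out, which leaves a value with no test, the values are those of the other line. From the lower to the higher of these, YAP1 ran between -0.229 and 1.05, CCN3 between -0.369 and 1.88, IGFBP3 between -0.404 and 1.21, TEAD2 between -0.366 and 0.249, WWC1 between -0.235 and 1.56, CSNK1E between -0.277 and 0.458, COL3A1 between -0.28 and 1.25, COL1A1 between -0.443 and 1.13, SPARC between -0.0498 and 0.287, GADD45A between -0.847 and 0.93, MYOF between -0.68 and 0.852, ARHGEF17 between -0.753 and 0.709, FOXF2 between -0.362 and 0.163, FJX1 between -0.18 and 0.351 and DOCK5 between -0.25 and 1.14.

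Depth limits YAP1 in MKN45 and ANKRD1 in every library. No replicate number is given in the labels, and the only pairing is by cell line.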

Other observations

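The genes beside YAP1 on chromosome 11 were looked at after its low level in MKN45 had been seen. BIRC2, 2 protein-coding genes downstream, was at 7.26 FPKM in treated and 9.74 FPKM in vehicle HGC27 and at 8.36 FPKM in treated and 8.01 FPKM in vehicle MKN45. TMEM123, the next, was at 87.7 FPKM in treated and 50.2 FPKM in vehicle HGC27 and at 107 FPKM in treated and 57.8 FPKM in vehicle MKN45. BIRC3, directly downstream of YAP1, was at 0.378 FPKM in treated and 0.169 FPKM in vehicle HGC27 and at 12.2 FPKM in treated and 0.722 FPKM in vehicle MKN45. CFAP300, directly upstream, was listed at 0 in both HGC27 libraries and was at 1.66 FPKM in treated and 5.04 FPKM in vehicle MKN45. CEP126, the next upstream, was at 0.186 FPKM in treated and 1.43 FPKM in vehicle HGC27 and at 0.854 FPKM in treated and 1.87 FPKM in vehicle MKN45. ANGPTL5, upstream of it, was listed at 0 in all 4 libraries. Of these 6 neighbours, all but ANGPTL5 were above the level of YAP1 in both MKN45 libraries. Of all 62710 genes, many of them listed at 0, 70.2% were below YAP1 in treated and 73.1% in vehicle MKN45. Whether the neighbours differ from other genes in this was not tested.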
